A study of Mus musculus with 12 samples.

Results

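Tnc, Postn, Thbs1, Sparc, Fn1, Fbn1, Dcn, Bgn and Lum encode secreted proteins of the extracellular matrix, among them matricellular proteins and small leucine-rich proteoglycans. They were taken by gene symbol from a table of 45777 mouse genes. All 9 were found and all 9 passed the filter on low counts, as did 18730 genes in all. The study measured them by RNA sequencing of whole kidney from male wild type C57BL/6 mice, in 12 libraries that form 4 groups of 3. The PBS group had 5 weekly intraperitoneal injections of cisplatin at 9 mg/kg, a platinum drug that injures kidney tubules, and then 5 intravenous injections of phosphate-buffered saline, 3 days apart. The EV200 and EV400 groups had the same cisplatin course and then, on the same schedule, 200 or 400 µg of iMSC-EVs, extracellular vesicles from cells that the labels abbreviate as iMSC. The normal group had no cisplatin, no vesicles and 0 intravenous doses, so cisplatin and the injections cannot be told apart in a comparison with it. Kidneys were collected 3 days after the last treatment, and all libraries carry the same batch label. The labels call the replicates biological without saying that each is a separate mouse, so p-values measure the spread between these samples.

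Matricellular proteins sit in the matrix without building its fibres. They bind receptors, growth factors and proteases and are mostly scarce in resting adult tissue and made during development and wound repair. Small leucine-rich proteoglycans coat collagen fibrils, set fibril diameter and bind growth factors of the TGF-beta family. In kidney, interstitial fibroblasts, pericytes and mesangial cells are known sources of both, and tubulointerstitial fibrosis, named in the title of the series, is the build-up of such matrix between tubules. Fn1 and Fbn1 belong to neither class: fibronectin and fibrillin-1 form the fibres and microfibrils to which the others attach.

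The promoters of 3 of these genes are shown because their transcripts moved together over libraries but by very different amounts: Tnc and Postn, scarce in normal kidney and both called in the comparison of PBS with normal, and Bgn, the most abundant of the 9. Each is the 250 bases before a RefSeq start on GRCm38.p6, 5′ to 3′ in the direction of the gene. Capitals mark matches to TATAAA on either strand. The windows are chr4:64047016-64047265 (minus strand), chr3:54360857-54361106 (plus strand, before the inner of the starts listed for Postn) and chrX:73483351-73483600 (plus strand).
Tnc: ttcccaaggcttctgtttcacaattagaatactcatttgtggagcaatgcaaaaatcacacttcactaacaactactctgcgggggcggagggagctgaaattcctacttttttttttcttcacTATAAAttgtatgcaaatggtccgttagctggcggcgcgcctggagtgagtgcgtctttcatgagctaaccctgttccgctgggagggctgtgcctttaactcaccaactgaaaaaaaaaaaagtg
Postn: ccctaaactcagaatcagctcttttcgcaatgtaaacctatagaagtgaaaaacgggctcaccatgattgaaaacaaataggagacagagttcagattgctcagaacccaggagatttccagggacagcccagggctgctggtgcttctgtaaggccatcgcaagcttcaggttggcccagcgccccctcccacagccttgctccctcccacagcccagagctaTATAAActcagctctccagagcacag
Bgn: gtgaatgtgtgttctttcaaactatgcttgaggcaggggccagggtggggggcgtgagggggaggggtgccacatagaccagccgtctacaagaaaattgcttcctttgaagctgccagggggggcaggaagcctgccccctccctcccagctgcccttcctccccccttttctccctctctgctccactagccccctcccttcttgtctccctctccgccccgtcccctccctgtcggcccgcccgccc
The match began 126 bases before the start in Tnc and 26 bases before it in Postn. No TATAAA was found in the Bgn window, whose GC content of 64.4% compares with 44.8% for Tnc, 52.0% for Postn and a median of 52.4% over all windows. Matches to TATAAA occurred in 12.4% of the 32851 promoter windows of this length. The AP-1 motif TGANTCA, the SMAD motif CAGACA and the TEAD motif GGAATG, searched on both strands, had no match in these 3 windows and were found in 6.75%, 17.1% and 12.6% of all windows. A second RefSeq start of Tnc, at position 64046936, has the same TATAAA 205 bases before it and a SMAD match 71 bases before it, and the outer start of Postn, at 54359267, has no match to any of the 4 motifs in its window. No 2 of these matches overlapped in the windows shown. These are matches of letters and show no binding.

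Total counts per library lay between 46.6 and 62.1 M, and the counts of single genes of the 9 between 29 (Lum, in a normal library) and 26683 (Bgn, in PBS 2). Of 11 kidney epithelium markers none was at 0 in every library. The same held for lists of macrophage and adipocyte markers, so this cannot check the labelled tissue. Libraries of a treated group differed among themselves more than the normal libraries did. On the first principal component of log2 CPM, with 43.4% of the variance, PBS 2 and EV200 3 lay farthest from normal at 83.4 and 60.5. EV400 3 lay at -52.1, beyond the normal libraries at -47.9 to -39.0. On the second component EV400 3 stood apart at -51.5, with every other library at -15.7 to 18.1. It also had the lowest TMM scaling factor, 0.891. The matrix genes followed the first component. PBS 2 was the highest PBS library for 9 of the 9 and PBS 1 the lowest for 9. EV200 3 was the highest EV200 library for 9, and EV400 3 the lowest EV400 library for 8. Levels below are CPM, counts scaled to a common library size, unless TPM is named.

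In kidneys of the PBS group the matricellular genes Tnc, Postn and Thbs1 and the proteoglycan gene Lum were higher than in normal kidneys by 1.93- to 15.8-fold, and the other 5 genes were higher in every PBS library without passing the test. In the EV400 group all 9 fitted means were lower than in PBS, by 0.60 to 2.34 on the log2 scale, and in the EV200 group by 0.18 to 1.34. No difference of a vesicle group from PBS was called, a call being an adjusted p under 0.05 in the quasi-likelihood test of edgeR after Benjamini-Hochberg correction over all genes tested. The summed level of the 9 genes was 421, 970.0 and 653 CPM in PBS, 354, 313 and 680.2 CPM in EV200, 405, 452 and 257 CPM in EV400, and 315, 331 and 333 CPM in normal libraries. PBS 2 had the highest sum and EV400 3 the lowest, and the EV200 libraries ranged from below the normal libraries to above PBS 3.

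**Figure D1:**
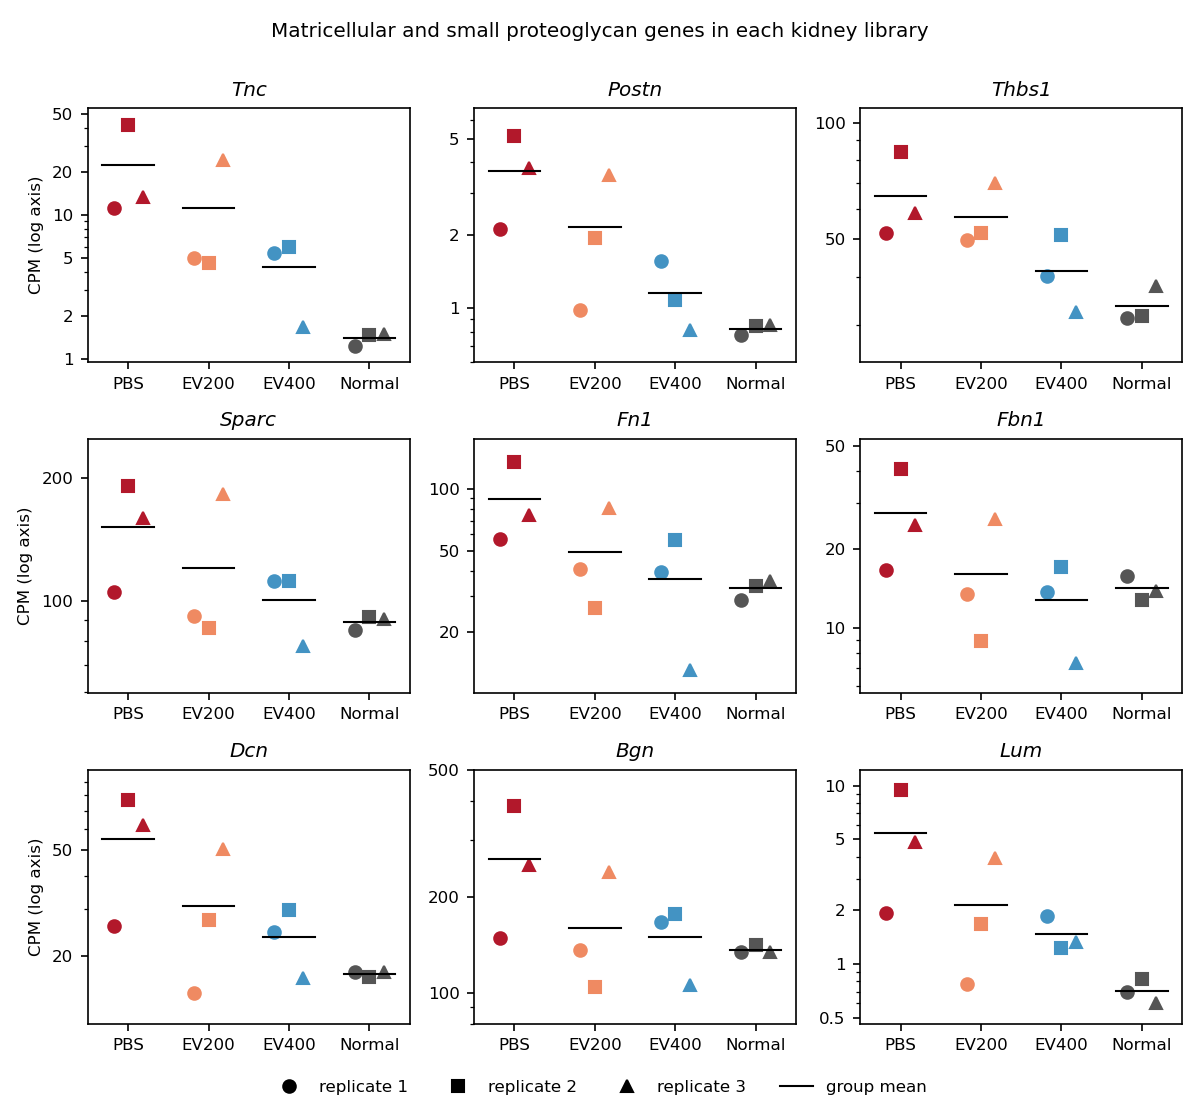
Level of each of the 9 genes in each library as CPM on a log axis, by group; symbols mark the replicate number and bars the group mean of 3 libraries. Tnc stood at 11.1 to 42.3 CPM in PBS and 1.24 to 1.49 CPM in normal libraries, and the EV200 group spread from 4.65 to 23.9 CPM.

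PBS was set against normal to see how matrix transcripts differed after cisplatin and saline. Tnc, encoding tenascin-C, a hexameric glycoprotein of wound edges (chromosome 4, 63959785 to 64047015, minus strand, GRCm38.p6), had 11.1, 42.3 and 13.2 CPM in PBS and 1.24, 1.48 and 1.49 CPM in normal kidneys. The groups were far apart, with PBS 2 above the other PBS libraries. The log2 fold change was 3.99 (SE 0.77, adjusted p = 0.0405), a 15.8-fold difference with a 95% interval of 4.92 to 51.0. Postn, encoding periostin, an integrin-binding protein that promotes collagen crosslinking (chromosome 3, 54359267 to 54391041, plus strand), had 2.13, 5.15 and 3.80 CPM in PBS and 0.777, 0.842 and 0.851 CPM in normal kidneys. Again no PBS library fell among the normal ones. The log2 fold change was 2.17 (SE 0.45, adjusted p = 0.0429).

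Thbs1, encoding thrombospondin-1, which binds CD36 and CD47 and can activate latent TGF-beta (chromosome 2, 118111876 to 118127133, plus strand), had 52.0, 83.8 and 58.5 CPM in PBS and 31.3, 31.8 and 37.9 CPM in normal kidneys. Its groups were separate, and its change was the smallest of those called, at 0.95 on the log2 scale (SE 0.20, adjusted p = 0.0436). Sparc, encoding a collagen-binding protein also called osteonectin (chromosome 11, 55394159 to 55420080, minus strand), had 105.3, 191.2 and 159.1 CPM in PBS and 84.9, 91.7 and 90.7 CPM in normal kidneys. PBS 1 lay close to the normal libraries, and the log2 fold change of 0.77 (SE 0.28, adjusted p = 0.101) was not called.

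Of the fibre-forming glycoproteins, Fn1, encoding fibronectin (chromosome 1, 71585473 to 71653280, minus strand), had 57.1, 135.1 and 74.9 CPM in PBS and 28.9, 33.8 and 35.7 CPM in normal kidneys. Fbn1, encoding fibrillin-1 (chromosome 2, 125300594 to 125506485, minus strand), had 16.7, 40.8 and 24.9 CPM in PBS and 15.8, 12.9 and 13.8 CPM in normal kidneys. PBS 1 exceeded the highest normal library only narrowly for Fbn1 and clearly for Fn1. Their log2 fold changes were 1.44 (SE 0.50, adjusted p = 0.0914) for Fn1 and 0.96 (SE 0.41, adjusted p = 0.143) for Fbn1, and neither was called.

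Of the proteoglycan genes, Lum, encoding lumican, a keratan sulfate proteoglycan that binds collagen fibrils (chromosome 10, 97565501 to 97572703, plus strand), had 1.93, 9.46 and 4.81 CPM in PBS and 0.697, 0.821 and 0.602 CPM in normal kidneys. Its PBS libraries were all above the normal ones. Over the 12 libraries its highest level was 15.7 times its lowest, second among the 9 genes to Tnc at 34.2 times. Its log2 fold change was 2.93 (SE 0.62, adjusted p = 0.0436), a 7.64-fold difference. Dcn, encoding decorin, which binds collagen and TGF-beta (chromosome 10, 97479500 to 97518163, plus strand), had 25.9, 76.8 and 62.0 CPM in PBS and 17.5, 16.7 and 17.4 CPM in normal kidneys. The groups did not overlap and the log2 fold change of 1.68 (SE 0.44, adjusted p = 0.0548) just missed the threshold of 0.05. Bgn, encoding biglycan, decorin's close relative and a ligand of Toll-like receptors when soluble (chromosome X, 73483601 to 73495936, plus strand), had 148.7, 385.3 and 251.5 CPM in PBS and 133.8, 141.3 and 134.1 CPM in normal kidneys. PBS 1 was close to normal, and the log2 fold change of 0.94 (SE 0.34, adjusted p = 0.102) was not called.

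In all, 4 of the 9 genes rose in PBS and 0 fell, where 1.84% of the genes tested were called higher and 0.902% lower. All 9 had no overlap between the groups with PBS higher, as had 20.3% of the genes tested, and the median log2 fold change was 1.44 over the 9 and 0.0022 over all genes. These calls depended on which libraries entered the fit, also on libraries outside the 2 groups compared. None of the 9 was called without PBS 2, without PBS 3, without EV400 1, without EV400 2 or without any 1 of normal 1, normal 2 and normal 3, and 0% to 0.215% of all genes were called higher in those fits. Without EV200 2, 1 (Tnc) was called, with 0.246% of all genes called higher, and without PBS 1, 7 were called, with 7.72% of all genes. Without PBS 2 the fold difference was 8.73 for Tnc and 4.80 for Lum, and over all fits without 1 library the adjusted p of the 4 called genes reached at most 0.158. DESeq2 called 6 of the 9, adding Sparc and Dcn, where it called 9.76% of all genes higher. Limma-voom with quality weights called 9, where it called 17.8% of all genes higher.

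The 200 µg dose was compared with saline after the same cisplatin course. Tnc had 5.05, 4.65 and 23.9 CPM in EV200, against 11.1, 42.3 and 13.2 CPM in PBS. EV200 1 and EV200 2 were below every PBS library, and EV200 3 was above PBS 1 and PBS 3. The same split ran through the set: EV200 1 was below the lowest PBS library for 9 of the 9 genes, EV200 2 for 8 and EV200 3 for 0. None of the 9 was called (0.0107% of genes were called lower), 0 were free of overlap with EV200 lower (4.94% of genes were), and 1, Lum, had an unadjusted p under 0.05, as had 3.08% of genes with EV200 lower. Log2 fold changes ran from -1.34 (SE 0.57) for Lum to -0.18 (SE 0.20) for Thbs1 with a median of -0.78, against -0.0025 over all genes, and adjusted p from 0.657 to 0.754. DESeq2 called 0 of the 9 and 0.0747% of all genes lower. Limma-voom gave PBS 2 a weight of 0.163, the lowest of all libraries, and EV200 3 a weight of 0.283. PBS 3 had a weight of 3.47 and EV200 2 one of 2.97. It called 8 of the 9, all but Thbs1, where it called 5.71% of all genes lower. For Tnc the log2 fold change was -0.99 with all libraries, -2.19 without EV200 3 and -0.11 without PBS 2, and for Thbs1 it was 0.054 without PBS 2.

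For the 400 µg dose, the fitted means of all 9 genes were below those of PBS, and none of the differences was called. Tnc had 5.47, 6.01 and 1.67 CPM in EV400, against 11.1, 42.3 and 13.2 CPM in PBS, a log2 fold change of -2.34 (SE 0.70, adjusted p = 0.148). Postn had 1.56, 1.08 and 0.811 CPM in EV400, against 2.13, 5.15 and 3.80 CPM in PBS, a log2 fold change of -1.68 (SE 0.44, adjusted p = 0.128). In both genes every EV400 library was below every PBS library. Lum had 1.86, 1.22 and 1.32 CPM in EV400, against 1.93, 9.46 and 4.81 CPM in PBS, and Thbs1 had 40.3, 51.3 and 32.4 CPM in EV400, against 52.0, 83.8 and 58.5 CPM in PBS. These groups were separate too, but by a narrow gap between EV400 1 and PBS 1 for Lum and between EV400 2 and PBS 1 for Thbs1. Their log2 fold changes were -1.88 (SE 0.58) and -0.65 (SE 0.20), with adjusted p of 0.150 and 0.151.

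Fn1 had 39.2, 56.4 and 13.1 CPM in EV400, against 57.1, 135.1 and 74.9 CPM in PBS, with no overlap and a log2 fold change of -1.30 (SE 0.50, adjusted p = 0.176). EV400 3 was below all normal libraries for Fn1, and for 5 of the 9 genes in all. Sparc, Fbn1, Dcn and Bgn overlapped with PBS, each through PBS 1, and their log2 fold changes were -0.60, -1.11, -1.22 and -0.81. Of the 9 genes 0 were called, where 0.032% of genes were called lower, and 8, all but Sparc, had an unadjusted p under 0.05, as had 12.6% of genes with EV400 lower. Tnc, Postn, Thbs1, Fn1 and Lum made 5 genes without overlap, as were 13.8% of all genes in this direction. DESeq2 called 4 of the 9 (Tnc, Postn, Thbs1 and Lum) and limma-voom 7, all but Sparc and Bgn, where they called 2.42% and 8.73% of all genes lower. Without PBS 2 the log2 fold change of Tnc was -1.46 and that of Lum -1.20.

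**Figure D2:**
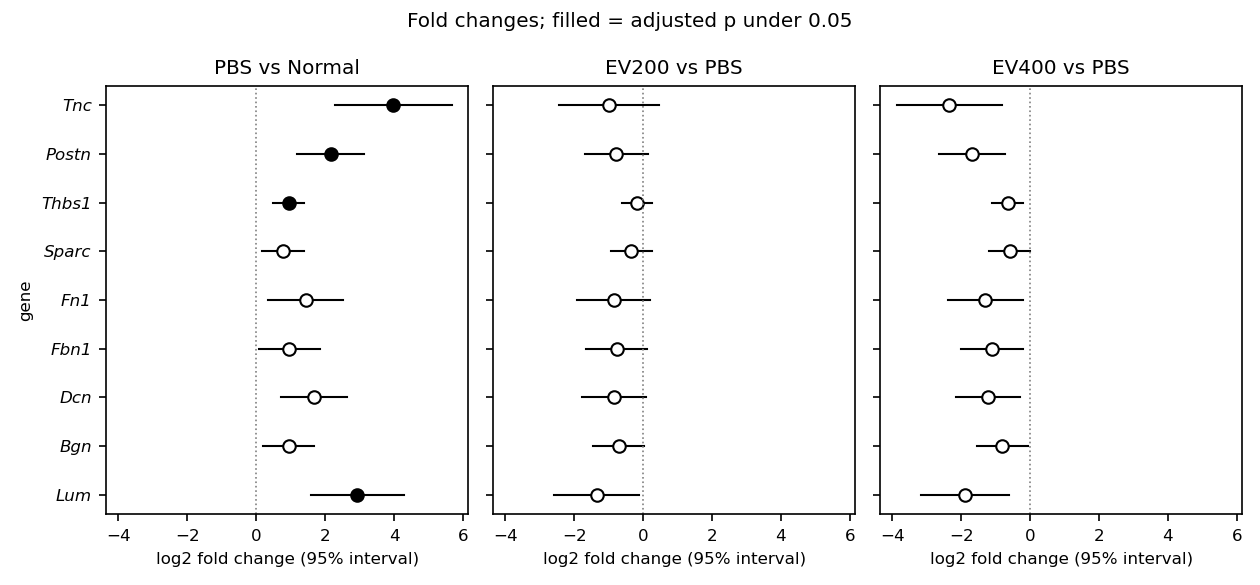
Log2 fold change of each gene with its 95% interval in 3 comparisons: PBS against normal, EV200 against PBS and EV400 against PBS; filled points have an adjusted p under 0.05 and the dotted line is 0. The filled points are Tnc, Postn, Thbs1 and Lum in PBS against normal, and all points of the vesicle groups against PBS are open and below 0. The 3 panels share libraries.

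Set against each other, the doses were not told apart. Log2 fold changes of EV400 over EV200 were below 0 for all 9 genes, from -1.35 (SE 0.69) for Tnc to -0.10 (SE 0.34) for Bgn, with adjusted p of 0.769 or more. The interval for Tnc was -2.85 to 0.15, so both a large difference and none lie within it. None of the 9 was called by edgeR, DESeq2 or limma-voom, which called 0%, 0.0694% and 0.539% of all genes in this direction. The libraries overlapped for all 9, where 5.57% of genes had every EV400 library lower, and 1 of the 9, Thbs1, had an unadjusted p under 0.05, as had 3.81% of genes. Without EV200 3 the log2 fold changes of Sparc, Fn1, Fbn1, Dcn, Bgn and Lum were 0.18, 0.11, 0.19, 0.18, 0.32 and 0.27.

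Against normal kidneys, EV200 had 0 of the 9 genes called and 4 with an unadjusted p under 0.05, at log2 fold changes of 3.00 for Tnc, 1.39 for Postn, 0.77 for Thbs1 and 1.59 for Lum. Over all genes 0.032% were called higher and 8.86% were higher at an unadjusted p under 0.05. Tnc, Postn and Thbs1 were above normal in every EV200 library (3 genes without overlap, with 11.9% of all genes). DESeq2 and limma-voom called 2 each, Tnc and Thbs1, where they called 2.05% and 3.24% of all genes higher. EV400 had 0 called, with 0% of genes called in either direction, and 1 with an unadjusted p under 0.05, Tnc at a log2 fold change of 1.65 (SE 0.75, adjusted p = 0.709), where 3.31% of genes were higher at that level. In CPM, Tnc at 1.67 in the lowest EV400 library, EV400 3, was above the highest normal library. So was Lum, which made 2 genes without overlap, with 8.28% of all genes. In TPM, Tnc in EV400 3 was at 0.330, within the normal libraries at 0.288 to 0.350. DESeq2 called 0 and limma-voom 1, Tnc, with 0.107% and 3.34% of all genes called higher. Fbn1 had the only negative value of EV400 against normal, -0.15 (SE 0.41). A joint test of any difference among the 4 groups called 0 of the 9, with 0.0641% of genes called, the smallest adjusted p being 0.114 for Tnc. At an unadjusted p under 0.05 it counted 6 (Tnc, Postn, Thbs1, Fn1, Dcn and Lum) and 19.7% of all genes. In the joint test DESeq2 called 4 and limma-voom 9, where they called 9.22% and 35.4% of all genes.

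**Figure D3:**
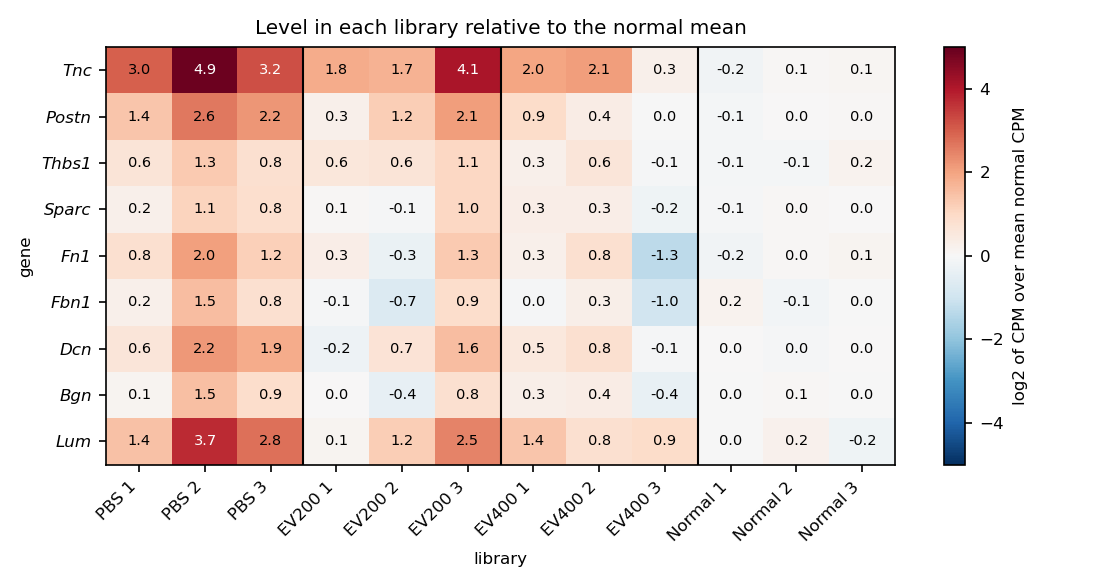
Level of each gene in each library relative to its mean in the normal group, as log2 of the CPM ratio; columns run from PBS through EV200 and EV400 to normal. PBS 2 and EV200 3 are the darkest columns, and EV400 3 is farthest below the normal mean for Fn1 and Fbn1.

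Compared per length as TPM, Bgn transcripts led the set in all groups. In normal kidneys the order was Bgn at 94.7 ± 1.40 TPM, Sparc at 57.8 ± 1.97, Dcn at 15.5 ± 0.718, Thbs1 at 9.73 ± 1.21, Fn1 at 6.94 ± 0.799, Fbn1 at 2.39 ± 0.279, Lum at 0.565 ± 0.0754, Postn at 0.397 ± 0.0181 and Tnc at 0.324 ± 0.0319 TPM (SD, n = 3), and no neighbours in it overlapped. In PBS the order was Bgn at 209.7 ± 104 TPM, Sparc at 116 ± 34.9, Dcn at 57.9 ± 29.4, Fn1 at 21.9 ± 11.0, Thbs1 at 21.6 ± 6.58, Tnc at 6.92 ± 5.59, Fbn1 at 5.42 ± 2.67, Lum at 5.12 ± 3.80 and Postn at 2.23 ± 1.06 TPM (SD, n = 3). There the ranges over the libraries overlapped for every pair of neighbours except Thbs1 and Tnc. Within every PBS library, Bgn was above Sparc, Sparc above Dcn and Dcn above Fn1. Tnc, the scarcest of the 9 in normal kidneys, overlapped with Fbn1 and Lum in PBS. It made up 1.43 ± 0.565% of the summed TPM of the 9 genes in PBS, 0.990 ± 0.566% in EV200, 0.518 ± 0.233% in EV400 and 0.172 ± 0.0135% in normal kidneys (SD, n = 3). Bgn held 46.2 ± 2.67% in PBS and 50.3 ± 1.16% in normal kidneys.

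Ratios of TPM within a library, chosen after the levels were seen and given without a test, set genes of the set against each other. Tnc over Fn1 was 0.228 to 0.390 in PBS, 0.165 to 0.368 in EV200, 0.141 to 0.187 in EV400 and 0.0453 to 0.0477 in normal libraries. All 9 libraries of cisplatin-treated mice were above the normal ones. EV400 3 was so with Tnc at 0.330 TPM, within the normal libraries at 0.288 to 0.350 TPM. Its Fn1, at 2.27 TPM, was below the normal libraries at 6.12 to 7.71 TPM. Postn over Fbn1 was 0.374 to 0.468 in PBS, 0.210 to 0.648 in EV200, 0.174 to 0.332 in EV400 and 0.141 to 0.189 in normal libraries. Dcn over Bgn was 0.229 to 0.326 in PBS and 0.152 to 0.170 in normal libraries, with EV200 spanning both at 0.139 to 0.344. Thbs1 over Sparc overlapped between PBS, at 0.164 to 0.206, and normal libraries, at 0.155 to 0.186.

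In whole kidney, more cells of a type and more RNA per cell cannot be told apart, and markers of several cell types moved with these genes. The summed level of 16 fibroblast and pericyte markers had a lowest, median and highest value of 271, 430.5 and 688 CPM in PBS. These values were 195, 216 and 446 CPM in EV200, 171, 259 and 294 CPM in EV400 and 206, 216 and 218 CPM in normal libraries. The list includes matrix genes. Col1a1, Col1a2 and Col3a1 averaged 46.3, 94.2 and 107 CPM in PBS, and 10.6, 34.7 and 24.1 CPM in normal kidneys. Pdgfrb, Cspg4 and Gas1 averaged 49.0, 20.1 and 19.0 CPM in PBS, and 38.9, 20.6 and 18.5 CPM in normal kidneys. Over the 15 tested, the median log2 fold change was 0.80. Of these 1 rose in PBS, Dpt, encoding the matrix protein dermatopontin, by 3.54 on the log2 scale, and 0 fell. The 9 myofibroblast and smooth muscle markers summed to 275 to 393 CPM in PBS and 264 to 289.6 CPM in normal libraries, with 0 of 8 called. For 11 macrophage markers the lowest, median and highest sums were 327, 409 and 649.8 CPM in PBS, 187, 211 and 574 CPM in EV200, 128, 266 and 276 CPM in EV400 and 135, 141 and 157 CPM in normal libraries. Of these 11, 4 rose in PBS and 0 fell, namely Lyz2 at a log2 fold change of 3.77, Ms4a7 at 2.75, Cd68 at 2.17 and C1qa at 1.77. Over all genes 1.84% were called higher in PBS and 0.902% lower. The macrophage sums were high in the libraries where the matrix genes were high, PBS 2 and EV200 3. No marker of these lists was at 0 in every library. The part of these cells in the results above was not tested.

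Markers of tissue around the renal pelvis and capsule also differed. Against normal, edgeR called 1.84% of all genes higher in PBS and 0.902% lower. Of 10 urothelium markers, which summed to 22.1 to 42.5 CPM in PBS, 10.7 to 41.6 CPM in EV200, 9.67 to 16.9 CPM in EV400 and 8.17 to 10.6 CPM in normal libraries, 3 rose in PBS, Psca by 4.30, Sprr1a by 3.33 and Gata3 by 0.62 on the log2 scale, and 0 fell. Of 7 mesothelium markers, with 1 at 0 in every library, 2 of the 5 tested rose, Krt19 by 4.30 and Upk3b by 2.70. The sums of the 7, at 122 to 140.2 CPM in PBS and 120.4 to 145 CPM in normal libraries, overlapped. Most of these sums was Gpm6a, at 105 CPM on average in PBS and 126 CPM in normal kidneys. The 9 adipocyte markers summed to 70.1 CPM in the highest PBS library and 3.05 and 5.24 CPM in the other PBS libraries, against 3.30 to 3.55 CPM in normal libraries, with 0 of 4 called. The high library was PBS 3, where the adipocyte hormone gene Adipoq was at 7.67 CPM against 0 to 0.124 CPM elsewhere. Without PBS 3 the log2 fold changes of PBS over normal were 4.25 for Tnc, 2.15 for Postn, 1.01 for Thbs1 and 3.01 for Lum. Kidney epithelium markers summed to 23626 to 29923 CPM in PBS and 33039.8 to 36271 CPM in normal libraries. The largest part of these sums was Kap, at 15501 CPM on average in PBS and 20630 CPM in normal kidneys. Of the 11 markers 1, the loop of Henle transporter gene Slc12a1, rose by 0.67. Their median log2 fold change was 0.05. At an unadjusted p under 0.05, 4 were higher and 3 lower, where 17% of all genes were higher and 12.8% lower. In the 5 other comparisons none of the marker genes was called by edgeR, which called 0% to 0.0801% of all genes there. The part of these markers was not tested.

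As a yardstick for interstitial fibroblasts, each gene was set over Pdgfra, the receptor gene they carry, in TPM of the same library; this too was chosen after the values were seen. Pdgfra itself had 25.9, 87.6 and 42.7 CPM in PBS, 25.5, 21.7 and 47.3 CPM in EV200, 30.3, 35.3 and 16.2 CPM in EV400 and 27.0, 26.9 and 26.9 CPM in normal kidneys. PBS 2 was high and EV400 3 low, as for the matrix genes, and PBS was not called against normal (log2 fold change 0.95, adjusted p = 0.151). Relative to the normal mean of this ratio, Tnc was at 7.14 to 10.6 in PBS, 4.13 to 11.1 in EV200 and 1.97 to 4.28 in EV400. Lum was at 2.88 to 4.41, Postn at 2.14 to 3.19 and Dcn at 1.40 to 2.34 in PBS. Fn1 was at 1.27 to 1.83 in PBS, above the normal libraries at 0.858 to 1.11. Bgn at 0.870 to 1.17, Fbn1 at 0.905 to 1.24, Sparc at 0.671 to 1.32 and Thbs1 at 0.770 to 1.62 in PBS spanned the normal libraries.

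**Figure D4:**
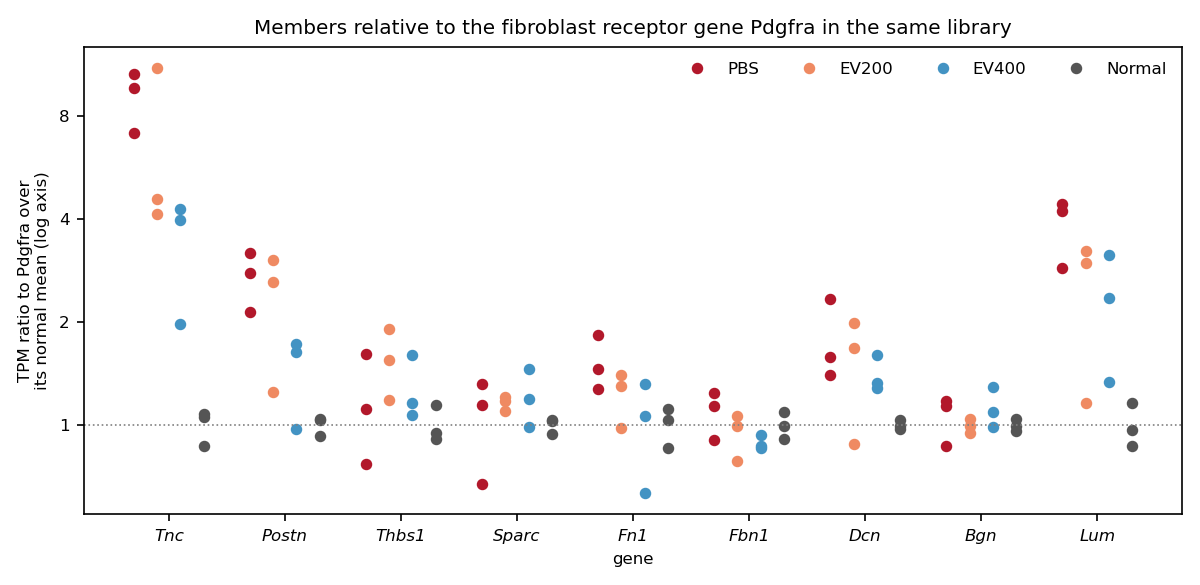
TPM of each gene over TPM of Pdgfra in the same library, divided by the mean of that ratio in the normal group, on a log axis; each point is a library. Tnc stands at 1.97 or more in all libraries of cisplatin-treated mice, whereas Bgn stays between 0.870 and 1.29 in them. The value of 1.97 is that of EV400 3, with Pdgfra at 3.59 TPM, against 6.80 to 7.15 TPM in normal libraries.

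Relatives of these proteins were followed in lists set out with earlier results known. Of 23 matricellular relatives 19 were tested, and 3 rose in PBS against normal with 0 falling; their median log2 fold change was 0.81. They were Smoc2, a SPARC-related calcium-binding protein gene, at 35.5 ± 24.6 CPM in PBS and 4.41 ± 1.12 CPM in normal kidneys, Spp1, encoding osteopontin, at 883 ± 178 CPM in PBS and 318 ± 47.2 CPM in normal kidneys, and Thbs2, the closest relative of Thbs1, at 20.6 ± 9.02 CPM in PBS and 4.16 ± 0.262 CPM in normal kidneys (SD, n = 3). Their log2 fold changes were 3.01, 1.47 and 2.31. Over all genes 1.84% were called higher in PBS and 0.902% lower. Of 21 microfibril and elastic fibre genes 5 rose and 0 fell, with a median of 0.75. These included Ltbp2, a fibrillin-binding protein gene, at 10.5 ± 6.47 CPM in PBS and 0.101 ± 0.0917 CPM in normal kidneys, Fbln1, encoding fibulin-1, by 2.36, Emilin2 by 1.45 and Efemp1, encoding fibulin-3, by 1.18 on the log2 scale. The crosslinking enzyme gene Lox was the fifth, by 2.82.

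Of 15 small leucine-rich relatives 11 were tested and 0 were called by edgeR, where 1.84% of all genes were called higher and 0.902% lower. At an unadjusted p under 0.05 there was 1 with PBS higher and 2 with PBS lower, where 17% of all genes were higher and 12.8% lower, and the median log2 fold change was 0.23. The difference between lists was not tested. The lowest p belonged to Chadl, at a log2 fold change of -0.70 (adjusted p = 0.0539), and Tsku, at -0.68. Among 21 genes of receptors for the 9 proteins, mainly integrin subunits, 0 were called, with 11 higher and 3 lower at an unadjusted p under 0.05 and a median of 0.31. The smallest p belonged to the thrombospondin receptor gene Cd36 at -0.40 (adjusted p = 0.0503), followed by the integrin gene Itgb8 at -0.51. In the 5 other comparisons none of these 4 lists had a called gene, where edgeR called 0% to 0.0801% of all genes. Against PBS, list medians in EV200 were -0.23 for matricellular relatives, 0.03 for leucine-rich relatives, -0.40 for microfibril genes and -0.22 for receptors, and in EV400 -0.58, -0.31, -0.65 and -0.41, where the medians over all genes were -0.0025 and -0.025.

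**Figure D5:**
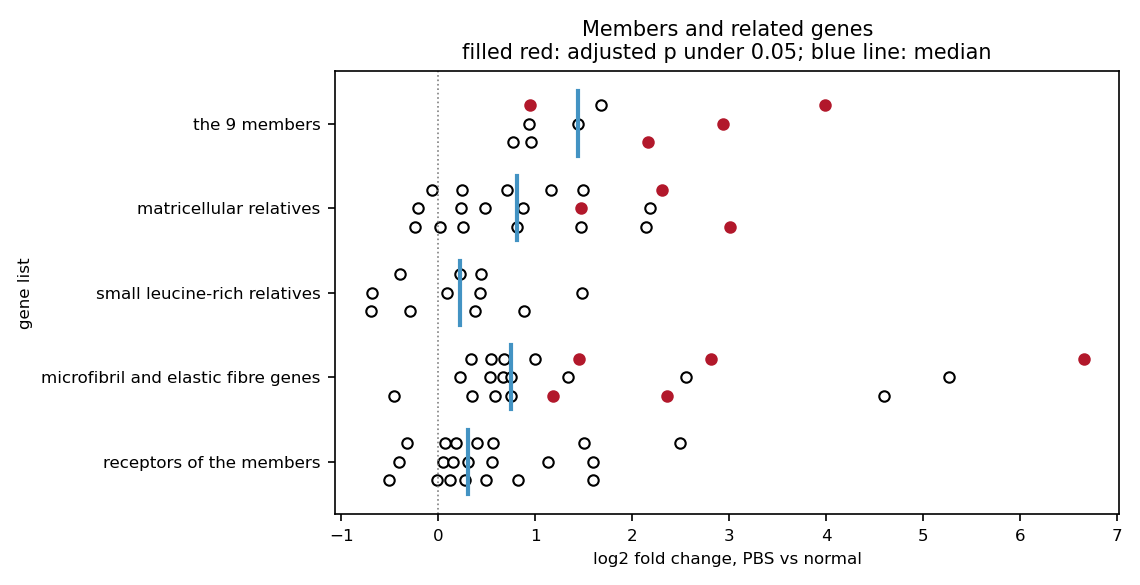
Log2 fold change of PBS against normal for the 9 genes and for 4 lists of related genes; each point is a gene, red points have an adjusted p under 0.05 and blue lines are list medians. The 9 genes have a median of 1.44 and the small leucine-rich relatives one of 0.23 with no red point.

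Across the 12 libraries the 9 genes varied together. Pearson correlations of log2 CPM for the 36 pairs ran from 0.717 for Fbn1 with Lum to 0.961 for Tnc with Thbs1; they describe these libraries, which fall into groups and share depth and composition within a library. Among about 10700 genes at 5 CPM or more, the gene most like Tnc was Flvcr1, a heme exporter gene, at r = 0.992, and that most like Bgn was Colec12, a scavenger receptor gene, at 0.994. For Sparc it was Myadm (0.988), for Fn1 the fibulin gene Fbln7 (0.988), for Thbs1 Nfatc2 (0.984) and for Fbn1 the elastic fibre gene Emilin1 (0.983). For Dcn it was Celf2 (0.977), for Lum the chloride channel gene Ano1 (0.972) and for Postn the chaperone gene Hspb8 (0.969). The collagen gene Col1a2 was among the 3 genes most like Bgn, and the smooth muscle gene Tagln among those most like Dcn.

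Exons of 4 of the genes overlap genes on the other strand in GENCODE vM21, over 20.1% of the exon bases of Fbn1 (Gm9913), 3.42% of Thbs1 (Gm29233) and 2.26% of Tnc (8030451A03Rik), and over a share between the last 2 for Fn1 (Apol7d). The kit keeps strand, but the strand setting of the counting is not given in the sources used here, so reads of these overlaps may be counted for either gene. The exons of Postn, Sparc, Dcn, Bgn and Lum overlap no other gene there.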

How the data were processed

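RNA of 12 mouse kidney libraries was sequenced as paired reads from a stranded poly(A) kit, per the labels' protocols. Builds GRCm38 and mm10 and the tools HISAT2 2.1.0, StringTie 2.1.3b, Trimmomatic 0.38 and FastQC 0.11.7 are named in the submitters' processing notes. For the gene counting, tool, strand option and annotation release: not given in the sources used here. As raw values the authors deposited read counts per gene, used here for all tests, TPM values, used for levels between genes, and FPKM values in 12 columns, not used.

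All 12 libraries entered 1 fit of edgeR 4.0.16 (R 4.3.3), with TMM factors, its default filter and the quasi-likelihood test on 8 residual degrees of freedom. Adjustment by Benjamini-Hochberg ran over 18730 genes in each of 6 comparisons and the joint test, and a gene was called under 0.05. CPM use the TMM-scaled library size, which ranged from 46.6 to 62.1 M before scaling. SE was taken as the absolute log2 fold change over the root of F. The 9 genes and 11 lists of 152 genes were chosen with earlier results of these data known. In lists, up to 4 called genes with the smallest p were named, or 2 where none was called. Lox, Itgb6, Omd, Adipoq, Pdgfra, Pdgfrb, Cspg4, Gas1, Col1a1, Col1a2, Col3a1, Gpm6a and Kap lie outside this rule, all chosen after their values were seen. Alternatives were DESeq2 1.42.0 and its size factors, limma 3.58.1 voom with quality weights, 2 other filters, a replicate block, the compared groups alone and each library left out. Replicate numbers did not pair libraries. The code was tested on simulated data. Promoters are from RefSeq on GRCm38.p6, which listed 5 of the 9 genes.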

Additional observations from a re-analysis of the deposited data

How the results depend on the processing

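Counts of the 9 genes called changed as follows. Against normal, PBS had 4 called and 9 by limma-voom, 0 with the replicate block, and 0 to 7 when single libraries were left out. Elsewhere the main count was 0. EV200 against PBS had 8 by limma-voom, and EV400 against PBS 4 by DESeq2 and 7 by limma-voom. Against normal, EV200 had 2 by DESeq2 and 2 by limma-voom, and EV400 1 by limma-voom. The joint test had 4 by DESeq2, 9 by limma-voom and 0 to 3 with 1 library left out, the 3 being without EV200 3, where 2.15% of all genes were called. Other alternatives kept the count within 1.5 times.

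Over all genes, PBS against normal had 514 called, 2855 by DESeq2, 6164 by limma-voom, 299 without a filter, 819 with at least 1 CPM in 3 libraries, 1449 with only the compared groups and 0 with the block. Same-numbered libraries had correlations of deviations of -0.39 to 0.34, with 2 of 18 pairs over 0.1, so the numbers were not taken as pairs. The cause of these differences was not tested.

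By limma-voom, EV400 against EV200 turned positive on the log2 scale for Sparc (0.25), Fn1 (0.33), Fbn1 (0.40), Bgn (0.49) and Lum (0.11), and EV200 against normal negative for Fn1 (-0.087), Fbn1 (-0.44) and Bgn (-0.24). With single libraries left out, signs also changed. In EV200 against PBS, Thbs1 ran from -0.35 to 0.054. In EV400 against EV200, Sparc ran from -0.45 to 0.18, Fn1 from -0.91 to 0.11, Fbn1 from -0.63 to 0.19, Dcn from -0.72 to 0.18, Bgn from -0.33 to 0.32 and Lum from -0.93 to 0.27, the upper ends being without EV200 3. In EV200 against normal, Sparc ran from -0.00093 to 0.64, Fbn1 from -0.34 to 0.49 and Bgn from -0.18 to 0.48. In EV400 against normal, Fn1 ran from -0.32 to 0.56, Fbn1 from -0.42 to 0.14 and Bgn from -0.0050 to 0.35. No sign changed in PBS against normal or EV400 against PBS. Postn and Lum rest on counts as low as 35 and 29 per library, which limits their precision.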

Other observations

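Among the receptor genes, Itgb6, encoding the integrin subunit of epithelial cells that binds fibronectin, tenascin-C and latent TGF-beta, was at 71.0 ± 9.90 CPM in EV400 kidneys and 117 ± 17.1 CPM in PBS kidneys (SD, n = 3). Normal kidneys had 103 ± 12.0 CPM, so the EV400 mean was below the normal mean too. The log2 fold change of EV400 over PBS was -0.73 (SE 0.13), and Itgb6 was not called by edgeR (adjusted p = 0.0737). Every EV400 library was below every PBS library, as for 13.8% of all genes. Spp1, encoding osteopontin, was at 492 CPM in EV400 and 883 CPM in PBS kidneys on average, a log2 fold change of -0.84 (adjusted p = 0.172). Omd, encoding the leucine-rich protein osteomodulin, lay the other way, at 3.58 ± 0.512 CPM in EV400 and 2.26 ± 0.307 CPM in PBS kidneys. Its log2 fold change was 0.66 (adjusted p = 0.147), and normal kidneys had 2.97 ± 0.141 CPM.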
